A study of Mus musculus with 8 samples.

Results

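Chromosome 18 of the mouse was followed here in Lewis lung carcinoma isografts that were sensitive or resistant to VEGF-Trap, a soluble decoy receptor that binds vascular endothelial growth factor. The chromosome was selected on the same values that are described below: all 4 histone marks profiled had a larger share of their peaks on it in the resistant line, so the size of that difference is a description and carries no test. It was divided into 907 tiles of 100 kb (mm9), of which 862 were counted, out of 24869 counted tiles on chromosomes 1 to 19 and X. The 12 tiles that overlap protocadherin genes were left out, as were 33 tiles with unsequenced bases or few peaks, 30 of them in the first 3 Mb.

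The LLC-NR group came from sensitive cells of Lewis lung carcinoma, a C57BL/6 mouse lung tumor line. The LLC-R group came from a subline obtained by repeated passage in mice under continuous VEGF-Trap. Whether LLC-NR was itself passaged in mice is not stated in the methods. Both lines were grown under the skin of female C57BL/6J mice that were bought at 6 to 8 weeks of age. The mice were housed for a week before the experiments, and the methods name no drug given to the isografts that were profiled. Dissected tumor tissue was fixed with formaldehyde, its chromatin was cut with micrococcal nuclease, and nucleosomes were precipitated with antibodies to H3K4me3, H3K9ac, H3K27me3 or H3K36me3 and sequenced. Each line and each mark had 1 library, for a total of 8, and each file lists the positions of nucleosome-sized peaks without their heights.

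Several features limit what these libraries can show. LLC-R is 1 selected subline. The labels give the tissue as lung although the tumors were subcutaneous, the dissected tissue can also hold host vessels, stroma and immune cells, and these files hold no RNA against which cell types could be checked. Without a second library of any line and mark, no difference has a replicate check, no p-value is given, and the 95% intervals cover counting error only. No input library was used here, so more copies of the chromosome and more marked nucleosomes per copy cannot be told apart. Without input or peak heights, peaks on nucleosomes that lack the mark cannot be told from the rest.

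In general, H3K4me3 is a methyl mark concentrated at the promoters of active and poised genes, and H3K9ac, an acetyl mark, gathers at active promoters and enhancers. H3K27me3 is laid down by Polycomb complexes over silent genes and broad silent domains. H3K36me3 is deposited over the bodies of genes as RNA polymerase elongates through them. Mouse chromosome 18 carries gene-rich segments beside long gene-poor, AT-rich segments that hold a few very large genes, many of them active in nervous tissue.

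The libraries held between 5660429 and 9101676 peaks on chromosomes 1 to 19, X and Y. LLC-R had more peaks than LLC-NR for H3K27me3 (9101676 against 7245069) and for H3K36me3 (8747477 against 6432422). It had fewer for H3K9ac (7853562 against 8547073) and about as many for H3K4me3 (5660429 against 5678320). The total therefore moved in different directions among the marks, while the share on chromosome 18 was larger in LLC-R for all of them. Read depth differed too. By the paper's mapping statistics, LLC-R had more uniquely mapped reads for H3K27me3 and H3K36me3 and fewer for H3K9ac and H3K4me3. The part of read depth in the ratios of tiles and genes was not tested. Each ratio below compares shares of a library's own peaks, as log2 of LLC-R over LLC-NR, and 0 means an equal share. Where a pair of peak numbers is given, that of LLC-NR comes first.

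For H3K4me3, chromosome 18 held 3.08% of the peaks in LLC-NR, against 3.55% in LLC-R. The log2 ratio was 0.20 (95% interval 0.19 to 0.21), from 175076 and 201062 peaks. For H3K36me3, the share was 3.19% in LLC-NR, against 3.56% in LLC-R, a log2 ratio of 0.16 (0.15 to 0.17). These were the largest relative gains among the marks, 15.2% and 11.7%.

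For H3K27me3 the share was 3.30% in LLC-NR, against 3.58% in LLC-R, a log2 ratio of 0.12 (0.11 to 0.13). For H3K9ac it was 3.36% and 3.60%, a log2 ratio of 0.10 (0.092 to 0.11). In H3K9ac the number of peaks on the chromosome was slightly lower in LLC-R, 282468 against 286898, and its share was larger because the library as a whole was smaller. Chromosome 18 ranked first of 20 chromosomes in each mark, and the runner-up differed by mark: chromosome 5 for H3K4me3 at 0.084, chromosome 12 for H3K9ac at 0.043, chromosome 14 for H3K27me3 at 0.11 and chromosome 7 for H3K36me3 at 0.12. For H3K27me3 the interval of chromosome 18 began at 0.11, close to the value of chromosome 14.

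**Figure D1:**
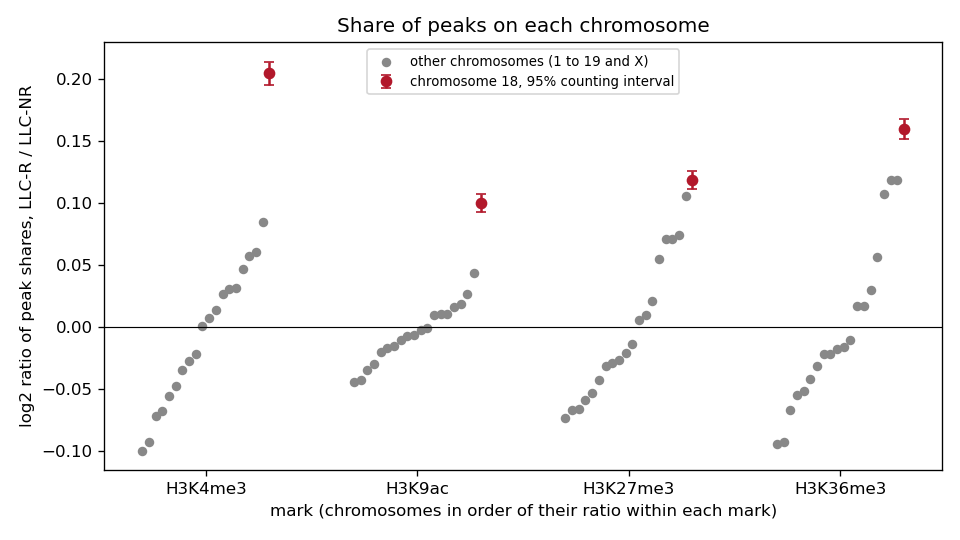
Log2 ratio of the share of peaks, LLC-R over LLC-NR, for chromosomes 1 to 19 and X in each of the 4 marks, with 1 library per line and mark; chromosomes stand in the order of their ratio, and the bar on chromosome 18 is its 95% counting interval. Chromosome 18 stands at the top in each mark, with the widest gap to the next chromosome in H3K4me3 (0.20 against 0.084).

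Another 3 chromosomes also met the rule that chose chromosome 18. All 4 ratios were above 0 on chromosomes 5, 4 and 8, where the smallest of the 4 was 0.026, 0.010 and 0.0093, against 0.10 on chromosome 18. Just outside the rule stood chromosomes 14, X and 7, each with 1 mark below 0, at -0.0014, -0.0071 and -0.018.

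Chromosome 18 was sparse in peaks in LLC-NR and on a level with the other chromosomes in LLC-R. By peaks per Mb, chromosome 18 ranked 4th from the lowest of 20 in LLC-NR for H3K4me3, H3K9ac and H3K36me3, and 6th for H3K27me3. In LLC-R it ranked 12th for H3K4me3, 14th for H3K9ac, 16th for H3K27me3 and 15th for H3K36me3. The same can be read from single tiles. In H3K4me3, a counted tile of chromosome 18 held 79 to 291 peaks in LLC-NR, with a median of 198, where the median tile elsewhere held 229. In LLC-R it held 89 to 332 peaks, with a median of 229.5, where the median tile elsewhere held 228.

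The other marks had the same order. For H3K36me3 the median tile held 224 peaks in LLC-NR against 256 elsewhere, and 361 in LLC-R against 358 elsewhere. For H3K27me3 the medians were 269 against 294 in LLC-NR and 377 against 373 in LLC-R. For H3K9ac they were 332 against 354 in LLC-NR and 328 against 326 in LLC-R. In all 4 marks the typical tile of chromosome 18 was below the rest of the genome in LLC-NR and within 4 peaks of it in LLC-R. The number of peaks thus moved with the result. With a genome-wide trend on the number of peaks per tile taken out, 49.0% of the tiles of chromosome 18 had all 4 marks higher, against 11.7% elsewhere. That number was the mean over all 8 libraries, LLC-R among them, so this step cannot take out the low numbers of LLC-NR. The part of the number of peaks in the result was not tested.

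**Figure D2:**
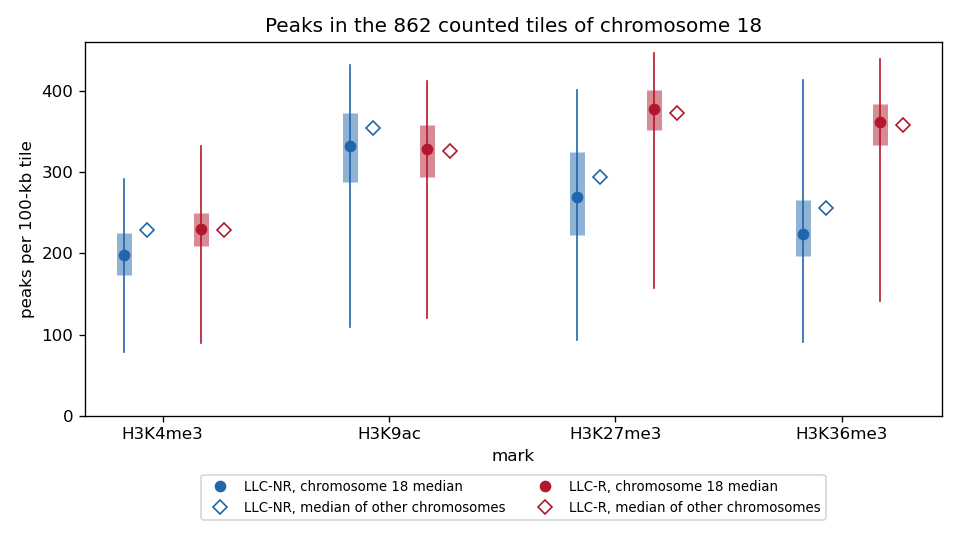
Peaks per 100-kb tile in the 8 libraries; circles are the medians of the 862 chromosome 18 tiles, thick bars run from the lower to the upper quartile, thin lines from the lowest to the highest tile, and open diamonds are the medians of the tiles of the other chromosomes. The circles lie below the diamonds in LLC-NR and beside them in LLC-R.

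The larger share was spread along nearly the whole chromosome for the marks of active promoters and was patchier for the other marks. H3K4me3 had a larger share in LLC-R in 811 of the 862 tiles (94.1%), against 49.1% of tiles on the other chromosomes, and the median log2 ratio was 0.21. H3K9ac did so in 792 tiles (91.9% against 47.4%), with a median of 0.098. H3K36me3 did so in 699 tiles (81.1% against 54.1%), with a median of 0.21. H3K27me3 did so in 563 tiles (65.3% against 48.5%), with a median of 0.12. At the depth of single tiles the intervals were wide: the interval lay above 0 in 252 tiles for H3K4me3, 48 for H3K9ac, 296 for H3K27me3 and 373 for H3K36me3, and below 0 in 1, 0, 10 and 23 tiles.

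All 4 marks had a larger share in LLC-R in 392 tiles (45.5%), which are called raised below. The background over all 24869 tiles of the genome was 14.7%, and it was 13.6% on the other chromosomes. Since the chromosome was picked on these ratios, nothing is read from that contrast. A further 376 tiles were higher in 3 marks, 77 in 2, 15 in 1 and 2 in none. Among chromosomes the next shares of raised tiles were 25.3% on X, 24.6% on chromosome 14 and 23.7% on chromosome 5.

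Among tiles higher in the other 3 marks, H3K4me3 was also higher in 392 of 395 (99.2%) and H3K9ac in 392 of 411 (95.4%), where the same shares on the other chromosomes were 81.6% and 64.0%. H3K36me3 was also higher in 392 of 502 (78.1%, elsewhere 76.4%), and H3K27me3 in 392 of 636 (61.6%, elsewhere 60.7%). For those marks the share on chromosome 18 was near that of the other chromosomes. Over all tiles, the shares of H3K36me3 and H3K27me3 were 81.1% and 65.3% on chromosome 18 and 54.1% and 48.5% elsewhere. On chromosome 18, tiles higher in the other 3 marks were thus no more often higher in these marks than all tiles, while elsewhere they were. For H3K4me3 and H3K9ac the shares over all tiles were 94.1% and 91.9%, and 49.1% and 47.4% elsewhere. Across the 862 tiles the ratios of H3K9ac and H3K36me3 went together most closely (Spearman rho 0.64, and 0.29 on the other chromosomes), and those of H3K27me3 and H3K36me3 hardly at all (0.04, and 0.15 elsewhere). These tiles share their libraries, their depth and their base composition, so the correlations are given as a description only.

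Raised tiles lay side by side in 18 stretches, each a run of 5 or more adjacent raised tiles, with 293 tiles and 29.3 Mb in all. The stretches took up 34.0% of the chromosome's tiles, where 5.37% of all tiles of the genome and 4.34% of tiles on the other chromosomes lay in such runs. They held few genes, with 35 of the chromosome's 491 protein-coding promoters (7.13%). The longest run of raised tiles on any chromosome, and the next longest, were both on chromosome 18, with 43 and 41 tiles, followed by a run of 38 tiles on chromosome 5.

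The longest stretch, chr18:26000001-30300000, holds no promoter of a protein-coding gene, and 90.7% of its 43 tiles overlap no annotated gene of any kind. Its mean number of H3K4me3 peaks per tile was 181 in LLC-NR, against 224 in LLC-R, and its H3K36me3 peaks numbered 200 and 347. For H3K27me3 the means were 215 and 353, and for H3K9ac 279 and 292. As shares of the libraries these are log2 ratios of 0.31 for H3K4me3 (0.27 to 0.35), 0.35 for H3K36me3 (0.31 to 0.39), 0.39 for H3K27me3 (0.35 to 0.43) and 0.19 for H3K9ac (0.15 to 0.23). A gene desert thus held the longest run of tiles in which all 4 marks had a larger share of their peaks in LLC-R. Peaks were dense away from genes. In LLC-NR, H3K4me3 had 1.80 peaks per kb in the chromosome's tiles without a gene, against 3.33 in its promoters. How many of these peaks mark real enrichment was not tested.

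The stretch chr18:15300001-19400000 begins at the 5′ end of Kctd1, which encodes a protein with a BTB domain, and ends beyond Cdh2, which encodes N-cadherin, the adhesion molecule of neural and mesenchymal cells. Between them lie Aqp4, the water channel of astrocytes, and Chst9, a sulfotransferase that modifies sugars on glycoproteins. Over its 41 tiles the mean number of H3K27me3 peaks was 195 in LLC-NR, against 333 in LLC-R, a log2 ratio of 0.44 (0.40 to 0.48), which was the largest H3K27me3 ratio among the 18 stretches. H3K4me3 peaks numbered 168 and 210 per tile, a log2 ratio of 0.33 (0.28 to 0.37). H3K36me3 stood at 0.35 and H3K9ac at 0.18.

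The stretch chr18:85000001-87600000, of 26 tiles, holds the promoters of Cyb5, which encodes the electron carrier cytochrome b5, of Fbxo15, an F-box gene active in embryonic stem cells, and of Neto1 and Cbln2, which encode proteins of the synapse. Its mean number of H3K4me3 peaks per tile was 180 in LLC-NR, against 214 in LLC-R (log2 ratio 0.25), and its H3K27me3 peaks numbered 206 and 342 (0.40). The stretch chr18:71000001-73500000, of 25 tiles, holds 1 coding promoter, that of Dcc, the netrin receptor that guides growing axons. There H3K4me3 peaks numbered 181 and 221 per tile (0.29) and H3K27me3 peaks 228 and 360 (0.33). The stretch chr18:47500001-49700000, of 22 tiles, starts at Sema6a, a semaphorin that steers axons, and continues into a desert in which 90.9% of tiles overlap no gene.

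These 5 stretches resembled each other in base composition, at 38.2% to 38.9% G+C, and in levels, with 168 to 184 H3K4me3 peaks per tile in LLC-NR and 210 to 224 in LLC-R. The other 13 stretches ran from 5 to 16 tiles. They include the promoters of Asxl3 and Klhl14 (chr18:21600001-23000000), Kcnn2, a calcium-activated potassium channel gene (chr18:45100001-46300000), Adamts19 and Chsy3 (chr18:58900001-60100000), Rit2 (chr18:30500001-31600000), Zfp521 (chr18:13900001-14800000), Setbp1 (chr18:79300001-80100000) and Dok6 (chr18:89500001-90300000). Across all 18 stretches the H3K4me3 ratio kept to a narrow range, 0.23 to 0.33, while the H3K27me3 ratio ran from 0.07 to 0.44.

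**Figure D3:**
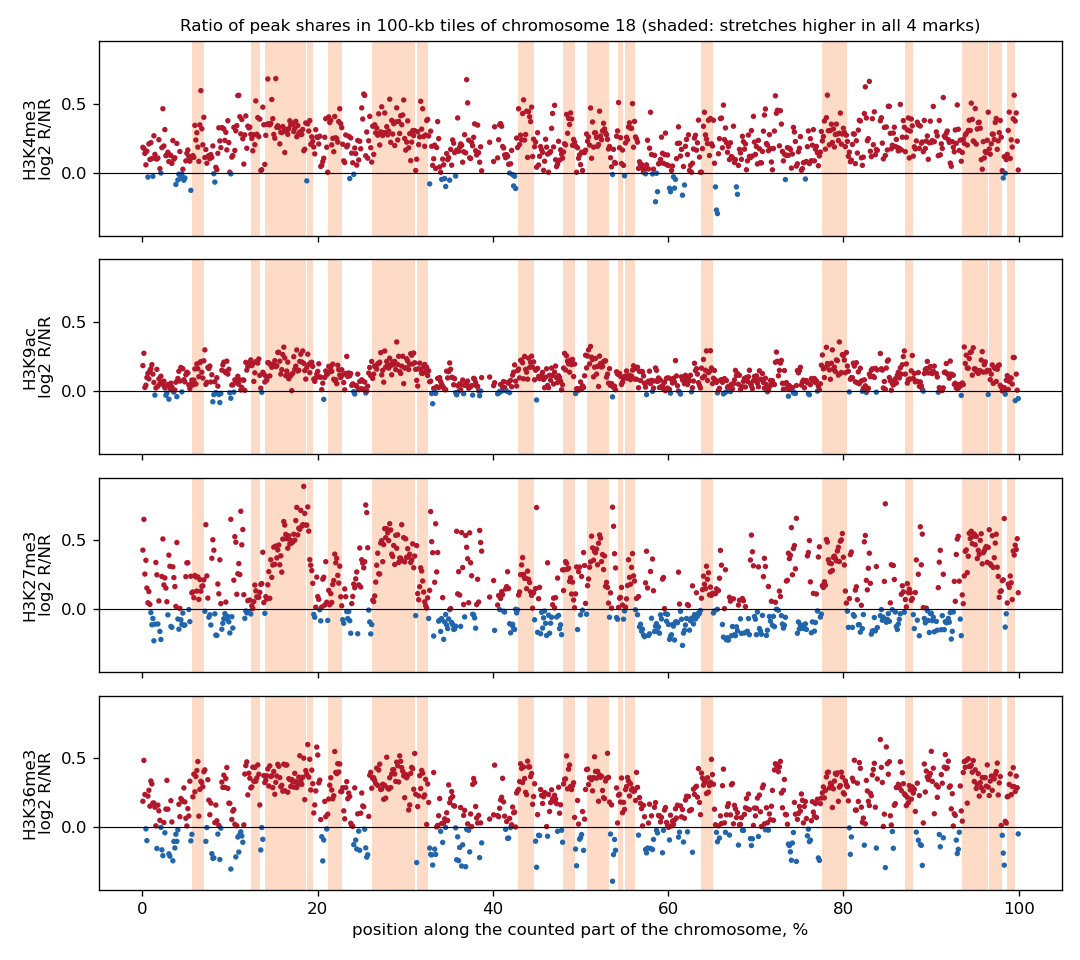
Log2 ratio of the share of peaks, LLC-R over LLC-NR, in each counted 100-kb tile of chromosome 18 against its position, as a percent of the counted part, for the 4 marks; red points are above 0, blue points at or below 0, and shading marks the 18 stretches. H3K4me3 and H3K9ac lie above 0 almost throughout (94.1% and 91.9% of tiles), and H3K27me3 lies above 0 in 65.3% of tiles, with long blocks below 0 between the stretches.

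The stretches carried unequal parts of the chromosome's net difference in share. With 34.0% of the tiles, they accounted for 43.6% of it in H3K4me3 and 49.6% in H3K9ac, and for 62.0% in H3K36me3 and 72.6% in H3K27me3. Outside the stretches the log2 ratio was still 0.17 in H3K4me3 (0.16 to 0.18), but 0.087 in H3K36me3, 0.072 in H3K9ac and 0.047 in H3K27me3. In the last of these only 47.5% of the outside tiles were higher in LLC-R. The stretches were drawn from these ratios, so their values describe where the difference lay and do not test it.

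Along the chromosome in blocks of 10 Mb, no block had a ratio below 0 in any mark. H3K27me3 came close to it. Its ratio was 0.019 (-0.003 to 0.041) from 50 to 60 Mb, with 47% of tiles higher. From 60 to 70 Mb it was 0.025, with 45% of tiles higher. The H3K4me3 ratio ran from 0.13 in the first 10 Mb to 0.27 from 10 to 20 Mb, with 0.31 in the 7 tiles after 90 Mb. From 60 to 70 Mb, a part rich in genes (87 transcription start sites, or TSSs, of protein-coding genes), 17% of tiles were raised, the smallest share. From 20 to 30 Mb, with 39 coding TSSs, 69% were raised. Few genes did not always go with many raised tiles: from 50 to 60 Mb, with 40 coding TSSs, 30% were raised, and in the first 10 Mb, with 31, 35.7%. The block with the most coding TSSs, 103 from 30 to 40 Mb, had 30.7% raised tiles and the lowest H3K36me3 ratio, 0.06.

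The single tile with the highest mean ratio over the marks, chr18:19500001-19600000, overlaps no gene. It held 135 H3K4me3 peaks in LLC-NR, against 172 in LLC-R, and 136 and 285 H3K27me3 peaks. Its H3K9ac peaks numbered 191 and 211, and its H3K36me3 peaks 138 and 284. At the other end, chr18:60500001-60600000 had the lowest mean ratio. It overlaps the protein-coding genes Iigp1 and BC023105 and the pseudogene Gm6960. Iigp1 encodes an interferon-induced GTPase that defends cells against intracellular parasites. The H3K4me3 peaks of the whole tile numbered 230 in LLC-NR, against 187 in LLC-R. That was a log2 ratio of -0.29, the lowest H3K4me3 value of the chromosome.

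The tiles were also grouped by gene content. Tiles that overlap no gene numbered 295, tiles with a gene but no coding TSS 261, and tiles with a coding TSS 306. The share of raised tiles was 67.5%, 41.8% and 27.5% in that order, and on the other chromosomes it was 23.5%, 15.6% and 6.27% in the same order. H3K36me3 differed most, with a log2 ratio of 0.29 in tiles without a gene (0.28 to 0.31), 0.15 in tiles with a gene but no coding TSS, and 0.061 in tiles with a coding TSS (0.048 to 0.074). For H3K4me3 the ratios were 0.24, 0.24 and 0.16, with no separation of the first 2 kinds of tile, and for H3K9ac 0.15, 0.099 and 0.061. For H3K27me3 they were 0.16, 0.11 and 0.090.

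Set against tiles of the same kind on the other chromosomes, the median H3K4me3 ratio of chromosome 18 was higher by 0.24 in tiles without a gene, 0.22 in tiles with a gene but no coding TSS, and 0.18 in tiles with a coding TSS. The corresponding H3K36me3 differences were 0.23, 0.17 and 0.13. For H3K27me3 they were 0.14, 0.13 and 0.12. The difference from the rest of the genome was thus present in each kind of tile. The chromosome was picked on these ratios, so this is a description only.

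Base composition moved with the result. When the chromosome's tiles were put into 5 groups of about equal size by G+C content, 93.6% of the tiles in the group lowest in G+C, 35.2% to 38.5% G+C, were raised. In the next groups 58.5%, 31.2%, 20.9% and 23.1% were raised. On the other chromosomes the shares were lower, at 26.7%, 18.6%, 10.1%, 5.84% and 5.70%. Within these groups the median H3K4me3 ratio of chromosome 18 exceeded that of the other chromosomes by 0.26 at the lowest G+C content and by 0.19 at the highest. For H3K27me3 it exceeded it by 0.21 at the lowest, where the medians were 0.38 and 0.16, and by 0.078 at the highest, where they were -0.003 and -0.081. With a genome-wide trend on G+C taken out of each mark, 57.5% of the tiles were raised, against 14.0% elsewhere. The part of base composition in the result was not tested beyond these values.

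Promoters were set against the tiles without a gene. A promoter was taken as the 1 kb before the TSS and the 0.5 kb after it, and 491 of the genome's 22314 protein-coding promoters that were counted are on chromosome 18. H3K4me3 peaks in these promoters numbered 2453 in LLC-NR, against 2414 in LLC-R, a log2 ratio of -0.02 (-0.10 to 0.063). In the 295 tiles without a gene the ratio was 0.24 (0.22 to 0.25), so the promoters were lower by 0.26 (interval of the difference -0.34 to -0.17). At promoters the median H3K4me3 ratio of the other chromosomes was -0.092. On chromosome 18 the mark that defines promoters thus had a larger share in LLC-R away from the promoters and about the same share within them.

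The same held for H3K27me3 and H3K9ac. In H3K27me3 the promoters had a ratio of 0.004 (-0.077 to 0.085) against 0.16 in tiles without a gene, a difference of -0.15 (-0.23 to -0.072). In H3K9ac they had 0.037 (-0.042 to 0.12) against 0.15, a difference of -0.11 (-0.19 to -0.033). H3K36me3 was not lower at promoters, with 0.34 at promoters (0.25 to 0.44) against 0.29, a difference of 0.049 whose interval, -0.044 to 0.14, includes 0. With 1.5-kb windows between genes in place of the tiles the H3K27me3 difference was -0.089, and H3K36me3 was 0.089, or 0.11 with promoters of 0.5 kb on each side of the TSS. The medians of these differences over the other chromosomes were -0.10 for H3K4me3, -0.091 for H3K27me3, -0.043 for H3K9ac and 0.080 for H3K36me3. The difference on chromosome 18 was the most negative of 20 chromosomes for H3K4me3 and H3K9ac, the third for H3K27me3 and the next to lowest for H3K36me3. The promoter ratio itself was the highest of the 20 for H3K4me3, H3K9ac and H3K36me3 and the next to highest for H3K27me3. It lay above the median of the other chromosomes by 0.073, 0.057, 0.15 and 0.085 in that order.

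The contrast between promoters and the space between genes was flatter in LLC-R for 3 of the 4 marks. In LLC-NR, H3K4me3 peaks were 1.85 times as dense per kb in promoters as in tiles without a gene, and in LLC-R 1.55 times. For H3K9ac the density ratio was 1.28 and 1.18, and for H3K27me3 1.19 and 1.07. This was not particular to chromosome 18. As log2, the median change of the density ratio over the other chromosomes was -0.10 for H3K4me3, -0.043 for H3K9ac and -0.091 for H3K27me3. The highest values among those chromosomes were 0.011, 0.042 and -0.012 in that order. For H3K36me3 the densities were nearly equal in LLC-NR, and in LLC-R they were 3.44 peaks per kb in promoters and 3.33 in tiles without a gene. A promoter of 1.5 kb can hold only a limited number of peaks that do not overlap, and the most found in any promoter of the genome was 9. On chromosome 18 the median promoter held 5 H3K4me3 peaks in both lines and at most 8, and it held 3 H3K36me3 peaks in LLC-NR, against 5 in LLC-R. The part of this limit in the flat promoter values was not tested.

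Counted promoter by promoter, 152 of 491 (31.0%) had more H3K4me3 peaks in LLC-R and 173 (35.2%) had fewer, where 25.5% of all promoters of the genome had more and 43.5% fewer. For H3K9ac 116 (23.6%) had more and 220 (44.8%) fewer, against 19.1% and 50.6% in all. For H3K27me3, whose LLC-R library was larger, 329 (67.0%) had more and 50 (10.2%) fewer, against 58.5% and 15% in all. For H3K36me3 418 (85.1%) had more and 21 (4.28%) fewer, against 78% and 5.78% in all. In each mark the share of promoters with more peaks was above that background and the share with fewer below it. For H3K36me3 the 95% interval of the share with fewer, 2.67% to 6.46%, includes the background. These counts are not scaled to the libraries, and the LLC-R library was larger for H3K36me3 too and smaller for H3K9ac.

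In 1-kb steps around the TSS, H3K4me3 on chromosome 18 held 2.29 peaks per gene 8 to 7 kb upstream in LLC-NR, against 2.52 in LLC-R, a log2 ratio of 0.14. In the first kb downstream of the TSS it held 3.51 and 3.38, a log2 ratio of -0.05. From 8 to 9 kb into the gene it held 2.30 and 2.66, a log2 ratio of 0.21. The ratio thus dipped at the TSS and recovered on both sides. On the other chromosomes the curve had a similar dip at a lower level, from -0.03 at 8 to 7 kb upstream to -0.12 in the last kb before the TSS and -0.01 at 8 to 9 kb downstream.

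H3K27me3 and H3K36me3 changed at the TSS in opposite ways. H3K27me3 stood at 0.03 in the last kb upstream and at 0.20 from 1 to 2 kb downstream, and it stayed between 0.16 and 0.23 to 10 kb. H3K36me3 had its highest ratio in the first kb of the gene, 0.35, where its peaks per gene numbered 2.02 in LLC-NR, against 3.51 in LLC-R. From 2 kb onward it lay between -0.06 and 0.01. The steps had the same direction on the other chromosomes, where H3K27me3 went from -0.04 to 0.04 and H3K36me3 from 0.18 in the first kb to -0.09 from 2 to 3 kb. From 2 to 10 kb into genes the H3K36me3 ratio of chromosome 18 was near 0 and that of the other chromosomes near -0.10. In tiles with a gene but no coding TSS it was 0.15 on chromosome 18.

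**Figure D4:**
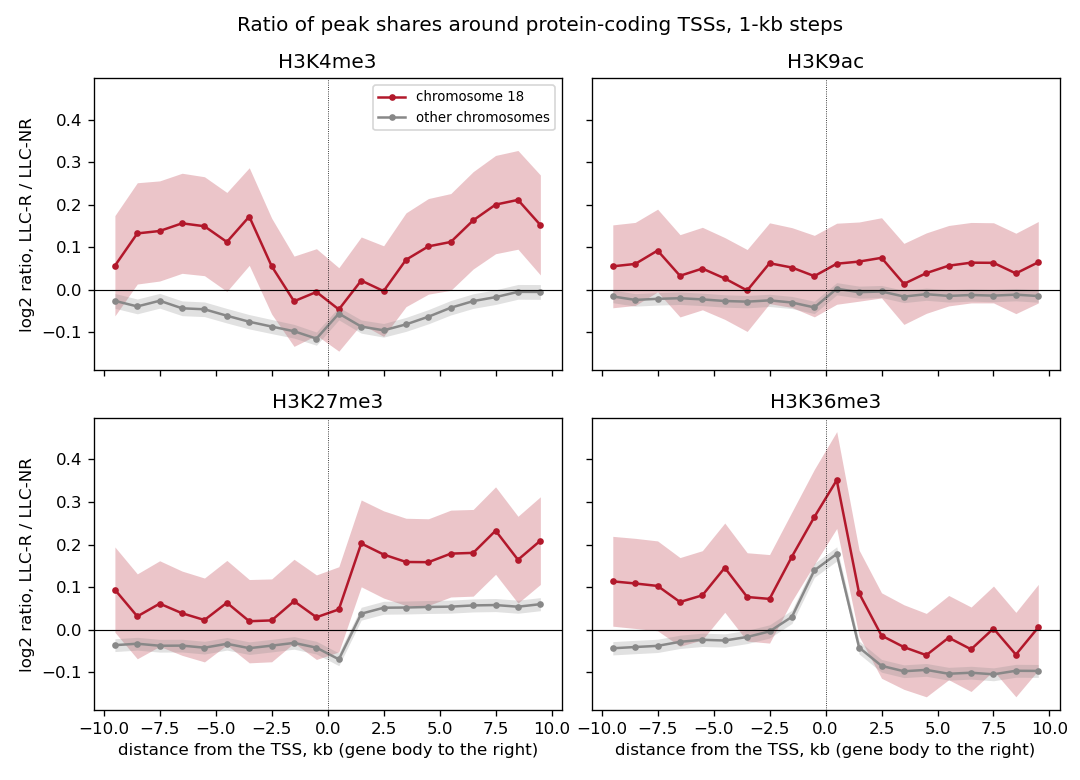
Log2 ratio of the share of peaks, LLC-R over LLC-NR, in 1-kb steps over the 10 kb on each side of protein-coding TSSs, for the 491 genes of chromosome 18 (red) and for the genes of the other chromosomes (grey); bands are 95% counting intervals. The H3K4me3 curve dips to -0.05 at the TSS, H3K27me3 steps up to 0.20 beyond it, and H3K36me3 peaks at 0.35 and returns to near 0.

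Over whole genes, from the first to the last annotated base, the same split appeared. H3K4me3 had a larger share in LLC-R in 384 of 461 genes with enough peaks (83.3%, against 52.6% of all genes of the genome) and H3K9ac in 361 of 472 (76.5% against 48.7%). H3K27me3 did so in 313 of 468 (66.9% against 55.4%) and H3K36me3 in 215 of 464 (46.3% against 37.2%). The median log2 ratios were 0.17, 0.05, 0.24 and -0.05 in that order. No test was made of these genes against those of other chromosomes.

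The gene groups differed in H3K27me3 and H3K36me3. Among 7 genes that every cell uses, H3K27me3 had a larger share in LLC-R in all 7 and H3K36me3 in 1. Of the genes of chromosome 18, 66.9% were higher in H3K27me3 (55.4% of all genes) and 46.3% in H3K36me3 (37.2%). Matr3, which encodes a protein of the nuclear matrix, held 48 H3K27me3 peaks in LLC-NR, against 111 in LLC-R, a log2 ratio of 0.88, and 125 and 129 H3K36me3 peaks, a log2 ratio of -0.40. Etf1, the factor that ends translation, had log2 ratios of 0.86 in H3K27me3 (47 and 107 peaks) and -0.43 in H3K36me3 (124 and 125 peaks). Hspa9, the mitochondrial chaperone mortalin, Atp5a1, a subunit of ATP synthase, and Kif5b, a kinesin motor, had H3K27me3 ratios of 0.84, 0.92 and 0.63. Summed over the 7 genes the ratio was 0.66 in H3K27me3 (0.46 to 0.85) and -0.34 in H3K36me3 (-0.49 to -0.19), while H3K4me3 was 0.08 with an interval that included 0.

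In LLC-NR, Matr3 and Etf1 thus held fewer H3K27me3 than H3K36me3 peaks, and the 2 numbers were closer in LLC-R. Their H3K36me3 peaks hardly changed in number while the library grew from 6432422 to 8747477 peaks, so their share fell. Whole genes, like promoters, can hold only a limited number of peaks that do not overlap. The part of that limit in the ratios of genes and gene groups was not tested. The LLC-R libraries of both marks also had more uniquely mapped reads, and the part of that depth was not tested. The signal transducers of the TGF-beta pathway resembled the genes that every cell uses in these ratios. Smad4, the common partner of the receptor-activated Smads, held 98 H3K27me3 peaks in LLC-NR, against 198 in LLC-R (log2 ratio 0.69) and 203 and 229 H3K36me3 peaks (-0.27). Smad2, a receptor-activated Smad, stood at 0.46 and -0.24. Smad7, the inhibitory Smad, stood at 0.34 and 0.01. Over the 3 genes the sums were 0.52 (0.31 to 0.73) and -0.21 (-0.38 to -0.034).

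Regulators of beta-catenin also had this pattern. Apc, the scaffold of the complex that destroys beta-catenin, held 203 and 387 H3K27me3 peaks (log2 ratio 0.60) and 355 and 415 H3K36me3 peaks (-0.22). Csnk1a1, the kinase that primes beta-catenin for destruction, stood at 0.61 and -0.34, and Ctnna1, alpha-catenin, at 0.49 and -0.26. Over the 3 genes the sums were 0.54 (0.39 to 0.69) and -0.26 (-0.38 to -0.13), and no gene of these 3 groups had its promoter in a stretch.

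Genes best known from neurons or from epithelium differed from these. Dcc, which spans 1092 kb, held 2095 H3K4me3 peaks in LLC-NR, against 2600 in LLC-R (log2 ratio 0.32), and 3269 and 3426 H3K9ac peaks (0.19). Its H3K27me3 peaks numbered 2563 and 4141 (0.36) and its H3K36me3 peaks 2362 and 4039 (0.33), so that all 4 marks were higher. In its promoter, H3K27me3 had 1 peak in LLC-NR, against 7 in LLC-R, H3K36me3 also 1 and 7, and H3K4me3 5 and 5. Celf4, an RNA-binding protein of neurons, had H3K4me3 at 0.30 and H3K36me3 at 0.33 but H3K27me3 at -0.15. Summed over the 9 neural genes, H3K4me3 stood at 0.27 (0.21 to 0.33), H3K36me3 at 0.30 (0.24 to 0.35) and H3K27me3 at 0.17 (0.12 to 0.22). The H3K36me3 share was higher in 9 of the 9, where it was higher in 46.3% of the genes of chromosome 18 and 37.2% of all genes. The H3K27me3 share was higher in only 4 of the 9, with a median ratio of -0.14, so its positive sum goes with Dcc, by far the longest gene of the list.

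The 9 desmosomal cadherins, which join neighbouring epithelial cells and lie in 1 cluster, had a higher H3K36me3 share in 8 genes, where 46.3% of the genes of chromosome 18 and 37.2% of all genes did, and a sum of 0.29 (0.15 to 0.44). Dsg1b, a desmoglein of mouse skin, held 33 H3K36me3 peaks in LLC-NR, against 95 in LLC-R, a log2 ratio of 1.08, and Dsg1c 46 and 102, a log2 ratio of 0.71. H3K4me3 summed to 0.21 (0.053 to 0.38) and was higher in 9 of 9 genes, near the 83.3% of the chromosome, although Dsg4 held 72 peaks in both lines. No gene of the cluster has its promoter in a stretch. The desmoglein 1 genes are close copies of each other, so uniquely mapped reads may not be shared out evenly among them.

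Among 6 genes of matrix and adhesion, Cdh2 held 434 H3K4me3 peaks in LLC-NR, against 518 in LLC-R (log2 ratio 0.26) and 525 and 817 H3K27me3 peaks (0.31). Lama3, a chain of the basement membrane protein laminin, held 442 and 621 H3K4me3 peaks, a log2 ratio of 0.50. Lox, the enzyme that crosslinks collagen, was the exception in H3K4me3 at -0.18, from 34 and 30 peaks. The list summed to 0.29 in H3K4me3 (0.21 to 0.38), 0.12 in H3K27me3 and 0.17 in H3K36me3. Fbn2 and Megf10, at 0.22 and 0.21, were near Cdh2 in H3K4me3.

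The 10 transcription factor genes had a higher H3K4me3 share over the whole gene in 10 of 10, where 83.3% of the genes of chromosome 18 did, with a sum of 0.22 (0.15 to 0.29). None had more H3K4me3 peaks in its promoter, where 31.0% of the promoters of chromosome 18 and 25.5% of all promoters did. H3K27me3 was higher in 7 of the 10 genes and H3K36me3 in 5. Zeb1, a repressor of epithelial genes, held 384 and 623 H3K27me3 peaks (0.37) and was at 0.07 in H3K4me3. Tcf4, a basic helix-loop-helix factor, held 769 and 1328 H3K27me3 peaks (0.46), and Nr3c1, the glucocorticoid receptor, 167 and 302 (0.53). Gata6 and Sall3 stood below 0 in H3K27me3, at -0.14 and -0.23. Zfp521 and Setbp1, whose promoters lay in stretches, stood at 0.26 and 0.28 in H3K4me3 and at 0.35 and 0.31 in H3K36me3.

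Genes of host cells and of growth factor signalling had few peaks and wide intervals. Cd74, the chaperone of MHC class II molecules in antigen-presenting cells, held 15 and 33 H3K27me3 peaks, and Cd14, the endotoxin co-receptor of myeloid cells, 5 and 5. Malt1, a protease of lymphocyte signalling, held 104 and 187 (0.52), while H3K27me3 was higher in only 2 of the 6 immune genes, with a median of -0.12. The 6 summed to 0.13 in H3K27me3 (-0.060 to 0.31) and -0.17 in H3K36me3 (-0.34 to 0.013). Csf1r, the macrophage growth factor receptor, and Pdgfrb, the receptor of pericytes and fibroblasts, stood at 0.22 and 0.25 in H3K4me3. The 5 genes of growth factor signalling, with Fgf1, Spry4 and Grp, summed to 0.18 in H3K4me3 (-0.007 to 0.37). Differences in host cell content between the tumors were not tested.

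**Figure D5:**
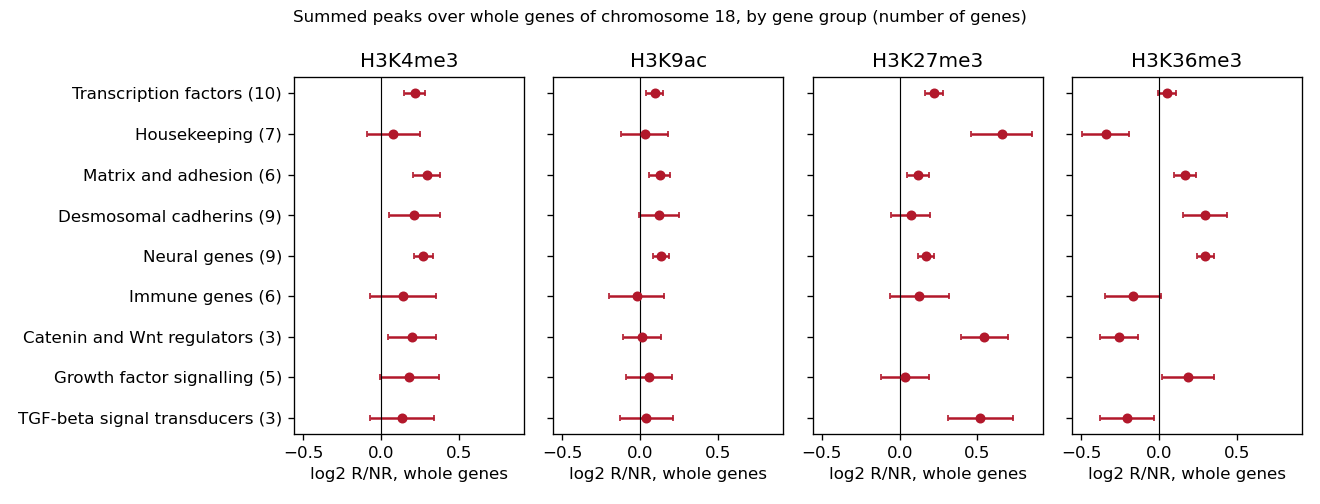
Log2 ratio of the share of peaks, LLC-R over LLC-NR, summed over whole genes of chromosome 18 in 9 gene groups, 1 panel per mark, with the number of genes in brackets; points are sums and bars 95% counting intervals. Housekeeping, TGF-beta and catenin genes lie at 0.66, 0.52 and 0.54 in H3K27me3 and below 0 in H3K36me3, while neural genes and desmosomal cadherins lie at 0.30 and 0.29 in H3K36me3.

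By promoter, the largest gains summed over the marks were those of Dcc, Nedd4l, Tmem173, 1700065I17Rik and Cdx1. Nedd4l, a ubiquitin ligase that removes sodium channels from the cell surface, had 2 and 8 H3K27me3 peaks and 2 and 7 H3K36me3 peaks in its promoter. Tmem173, which encodes the DNA-sensing adaptor STING, had 2 and 6 H3K27me3 peaks and 1 and 6 H3K36me3 peaks, with 6 and 5 of H3K4me3. Cdx1, a homeobox gene of the intestine, had 0 and 6 H3K36me3 peaks and 3 and 4 of H3K4me3. The promoter of 1700065I17Rik had 1 and 5 H3K4me3 peaks. These numbers are not scaled to the libraries, and more H3K36me3 peaks in LLC-R were found in 85.1% of the promoters of the chromosome.

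The largest falls were those of Rnf14, Gm10549, Fbxo38, Gm10008 and Pggt1b. Rnf14, a ubiquitin ligase that binds the androgen receptor, had 8 and 5 H3K4me3 peaks and 8 and 4 H3K9ac peaks. Fbxo38, an F-box protein, had 7 and 5 H3K4me3 peaks and 6 and 3 H3K36me3 peaks. Pggt1b, a subunit of a protein prenyltransferase, lost 1 peak in each mark, from 7 to 6 in H3K4me3. Promoters differ by so few peaks that these names mark the ends of the list and single genes cannot be told apart from counting error.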

How the data were processed

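Bowtie 0.12.7 was used by the authors to align the reads to mm9 with at most 2 mismatches. Reads with a unique position went into peak calling by GeneTrack, library by library, and its settings are not given in the sources used here. The deposited files hold peak positions only (chromosome, start and end, all 147 bp wide), with no counts of reads and no heights. A peak was counted by its midpoint, in 100-kb tiles, promoters and whole genes of GENCODE vM1 (NCBIM37, the assembly of mm9). Tiles were counted with at most 20% unsequenced bases, a mean of at least 50 peaks over the 8 libraries and at least 1 peak in each. Genes named Pcdh were left out. Ratios compare shares of a library's own peaks. Their 95% intervals are exact conditional binomial intervals (difference of 2 ratios: normal approximation on the log scale), and shares of promoters have exact binomial ones. Peaks exclude one another, so their spread is not that of independent reads. The TSS of a gene was that shared by most transcripts.

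The chromosome, the gene lists and the rules for stretches were chosen with earlier results of these data known. The named genes are all 58 genes of 9 lists, up to 4 genes with the most H3K4me3 promoter peaks in each of the 5 longest stretches (Gm and Rik names left out), and the 5 promoters with the largest gain and the largest fall. Values over whole genes and the steps around the TSS were added after the data were seen. Chromosome Y counts toward library totals and has no tiles. Alternatives changed tile size and offset, the threshold, the filter, the scaling, and trends on G+C and on the number of peaks. The scripts were tested on simulated data. Counting used pandas 2.3.3 and NumPy 2.4.6 under Python 3.11.15, intervals SciPy 1.17.1, and figures Matplotlib 3.10.9.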

Additional observations from a re-analysis of the deposited data

How the results depend on the processing

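No value changed sign under any of the alternatives tried, and 11 values moved beyond the counting interval of the value reported or, for the number of tiles in stretches, by over 1.5 times, while 40 did not. For the chromosome's ratio, the alternatives that took out a trend gave the median tile ratio in place of the ratio of shares. Whether they count as moved or not therefore also reflects that change of statistic. For H3K36me3 with a trend on the number of peaks taken out, the value counts as not moved at 0.16. The median tile ratio before that step was 0.21. With a trend on G+C taken out, the median tile ratio of chromosome 18 was 0.22 in H3K4me3, 0.15 in H3K27me3 and 0.20 in H3K36me3. Before that step the median tile ratios were 0.21, 0.12 and 0.21 in the same order. Relative to the median autosome, the ratio of the whole chromosome was 0.14 in H3K27me3 and 0.18 in H3K36me3. With a trend on the number of peaks taken out, an alternative chosen after seeing the data, the median tile ratio was 0.10 in H3K27me3 and 0.16 in H3K36me3. The share of raised tiles was 49.9% with 200-kb tiles, 25.5% with a log2 ratio above 0.1 (2.16% elsewhere), 57.5% with the G+C trend taken out (14.0% elsewhere) and 49.0% with the trend on the number of peaks taken out (11.7% elsewhere). Requiring 3 of the 4 marks put 719 tiles into stretches in place of 293 (83.4% of the chromosome, 22.6% elsewhere). The cause of these shifts was not tested. The 16 alternatives for promoters against tiles without a gene stayed within the counting intervals of the values reported, although the H3K27me3 difference was -0.089 with 1.5-kb windows between genes, and the H3K36me3 difference 0.089 with those windows and 0.11 with 0.5 kb on each side of the TSS. Stretches of at least 3 or at least 10 tiles held 324 and 257 tiles. No paired analysis was possible because there is 1 library per line and mark. Without peak heights or replicates, single tiles and promoters are limited by the small number of peaks, and variation between tumors was not measured.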
